A study of Mus musculus with 54 samples.

Results

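The response of the unruptured follicle side to human chorionic gonadotropin (hCG) was measured by RNA-seq in 27 of the 54 libraries of the series. Members were chosen by their labels: 12 libraries of the unruptured side after exposure to hCG (post-hCG) and 15 of the putative unruptured side of follicles kept without it (without hCG). Follicles came from CD-1 female mice 14 to 16 days old, grew for 8 days in an alginate hydrogel and then spent 12 h in maturation medium, which held serum, EGF and recombinant FSH in both groups and hCG in the post-hCG group only. Each follicle was then cut into its sides, and the RNA of a single side was amplified by Smart-Seq2. In follicles without hCG no rupture had taken place, so the putative unruptured side was picked by follicle shape. Isolation with enzymes removes much of the theca, the outer cell layer, which regrows in culture, so the theca of these follicles is a regrown one. The labels do not tie libraries to follicles or animals, so p-values measure the spread between these libraries.

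hCG binds the receptor of luteinizing hormone (LH) and stands in for the LH surge. In granulosa cells the surge raises cyclic AMP, releases EGF-like ligands and prostaglandins, and turns cells that make estradiol under FSH into luteal cells that make progesterone from cholesterol. The wall opens at the apex during ovulation, and the rest of it, the unruptured side, becomes the corpus luteum.

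In brief, post-hCG libraries held more RNA of 17 of 25 progesterone synthesis and luteal genes tested. They also held more of cholesterol genes, of glycolysis genes and of EGF-like and neuropeptide ligands. They held less RNA of 14 of 20 FSH-state granulosa genes tested (12 with limma). They also held less of 13 of 19 collagens and other fibrous matrix genes tested (9 with limma). Of BMP, Wnt and cell cycle genes, 13 of 22, 13 of 20 and 12 of 23 tested fell, and with limma 8, 7 and 4. Among all 9320 genes tested limma called 1522 lower, a share near the 4 of 23 cell cycle genes. The lists were chosen with earlier results of these data known. Of 9320 genes tested with edgeR's quasi-likelihood test (FDR of at most 0.05), 4947 were called, which is 53.1% of them. With hCG 2365 genes rose (25.4%) and 2582 fell (27.7%). Changes of at least 1 on the log2 scale were called for 730 higher genes (7.83%) and 674 lower genes (7.23%). The TPM values of the groups did not overlap in 356 higher genes (3.82%) and 135 lower genes (1.45%). Scaling by library totals alone instead of TMM moved the median of all genes by −0.22 and left 1455 higher and 3844 lower genes, 27.5% of calls higher in place of 47.8%, so changes below that size depend on the scaling. With limma on log2(TPM + 1), 57.6% of calls were higher. A median level that falls can reflect fewer cells of a type or less RNA per cell, which cannot be told apart in these libraries.

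**Figure D1:**
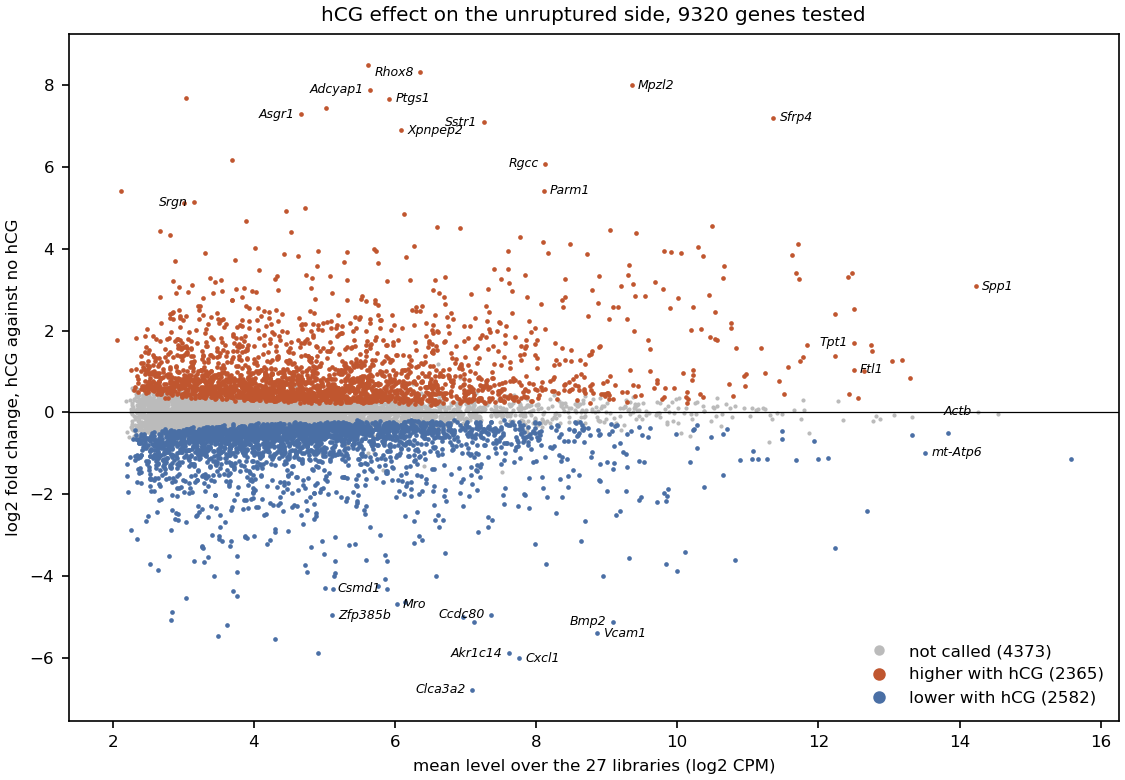
Each point is a gene, with its mean level over the 27 libraries as log2 CPM (counts scaled to library size) on the x axis and its log2 fold change (post-hCG against without hCG) on the y axis. Red points are the 2365 genes called higher, blue points the 2582 called lower and grey points the 4373 not called, and the labels mark the largest changes and some of the most abundant genes.

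The libraries differed in measures beyond single genes. Total counts ran from 1506980 to 2657045 without hCG and from 1777104 to 2386552 post-hCG (permutation p = 0.085, 0.11 after Benjamini-Hochberg adjustment over 5 measures). Genes with a count numbered 14622 ± 194 (SD, n = 15) and 14112 ± 288 (SD, n = 12), a difference of −509 (permutation p = 3e-05, adjusted 7.5e-05). Mitochondrially encoded genes took 7.38% ± 1.85 of counts without hCG and 4.44% ± 0.937 post-hCG (permutation p = 3e-05, adjusted 7.5e-05), and the 10 most abundant genes of each library 20.4% ± 3.1 and 17.2% ± 1.29 (permutation p = 0.0017, adjusted 0.0029). Gm10800, a predicted gene, took from 0.843% to 13% of counts without hCG (median 7.19%) and from 0.676% to 3.98% post-hCG (median 2.38%). Where its share is high it is among the 10 most abundant genes, so these measures are not independent. The wells named in the labels put the post-hCG libraries in other plate rows than those without hCG, so plate row and medium cannot be told apart.

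The labels give the tissue as a cumulus-oocyte complex, whereas the study's methods describe follicle sides with the complex discarded. None of 12 oocyte markers passed the filter on low counts. Their summed level reached 218 TPM in replicate 1 without hCG, was at most 16.4 TPM in the others without hCG and at most 9.77 TPM post-hCG. Zp2, a coat protein of the egg, had 84.9% of its counts without hCG in that replicate. The sum of 11 granulosa markers ran from 1030 to 5910 TPM without hCG and from 1140 to 2460 TPM post-hCG, and Inha and Fshr had counts in libraries of both groups. The sum of 12 theca markers ran from 134 to 2750 TPM (highest in replicate 7) and from 83.2 to 1310 TPM (highest in replicate 4). Results without replicates 1 and 7 without hCG and replicate 4 post-hCG are given below for some genes only. Without these libraries the counts of some gene lists moved. Lower immediate early genes numbered 5 in place of 7, and higher integrated stress response genes 9 in place of 8. Of the calls above, 4575 kept their direction and stayed called without those 3 libraries.

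**Figure D2:**
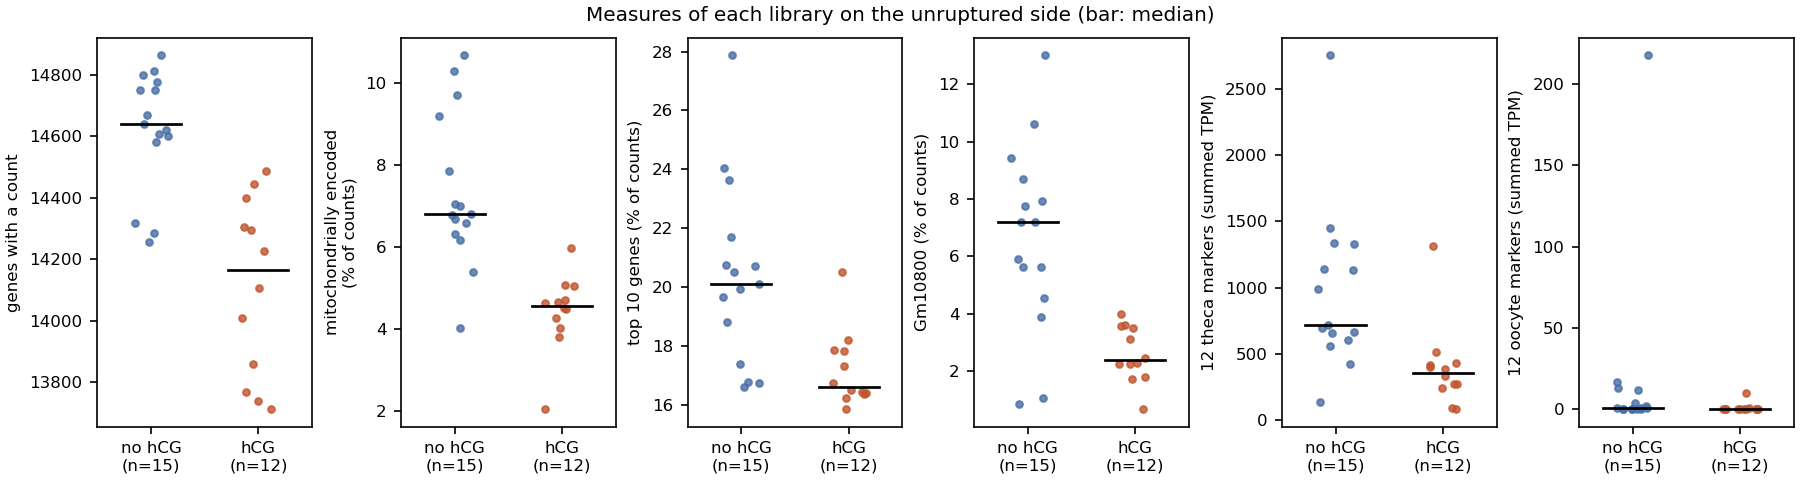
Each point is a library of the unruptured side and the bar is the group's median, with genes with a count, percent of counts or summed TPM on the y axes. The post-hCG points lie lower for mitochondrially encoded genes, for Gm10800 and for theca markers, with overlap, and a single library without hCG stands at 218 TPM of oocyte markers.

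Promoter sequence is shown for 4 genes that carry the main themes below and that hold a short response element upstream of their start. RefSeq (GRCm38.p6) gave a promoter for 112 of the 163 genes named by rule. Each line holds the 250 bases upstream of a start, 5′ to 3′ on the gene's plus strand. The capitals mark only the element named for that gene. Adcyap1 has 2 starts and Dhcr7 3, and the first one whose window held the element is shown. They are the cyclic AMP element TGACGTCA in Areg at chr5:91139349-91139598, its shorter form TGACGT in Adcyap1 at chr17:93198767-93199016, the sterol element TCACCCCAC in Hmgcs1 at chr13:119690101-119690350 and the NR5A element CAAGGTCA in Dhcr7 at chr7:143822917-143823166.
Areg: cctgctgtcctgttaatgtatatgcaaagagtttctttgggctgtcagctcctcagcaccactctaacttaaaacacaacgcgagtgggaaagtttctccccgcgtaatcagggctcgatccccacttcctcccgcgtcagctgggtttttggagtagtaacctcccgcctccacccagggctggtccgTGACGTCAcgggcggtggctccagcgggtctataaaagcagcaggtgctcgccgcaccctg
Adcyap1: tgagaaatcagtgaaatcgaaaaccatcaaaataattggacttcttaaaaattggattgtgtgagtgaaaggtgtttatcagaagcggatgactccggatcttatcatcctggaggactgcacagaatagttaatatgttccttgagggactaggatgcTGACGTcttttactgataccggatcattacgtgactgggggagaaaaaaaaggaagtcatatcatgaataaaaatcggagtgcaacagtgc
Hmgcs1: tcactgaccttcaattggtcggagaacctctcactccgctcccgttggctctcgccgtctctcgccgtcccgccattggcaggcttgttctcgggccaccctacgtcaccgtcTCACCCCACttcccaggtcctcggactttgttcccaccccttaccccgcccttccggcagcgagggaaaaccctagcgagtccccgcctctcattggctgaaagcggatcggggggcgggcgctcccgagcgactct
Dhcr7: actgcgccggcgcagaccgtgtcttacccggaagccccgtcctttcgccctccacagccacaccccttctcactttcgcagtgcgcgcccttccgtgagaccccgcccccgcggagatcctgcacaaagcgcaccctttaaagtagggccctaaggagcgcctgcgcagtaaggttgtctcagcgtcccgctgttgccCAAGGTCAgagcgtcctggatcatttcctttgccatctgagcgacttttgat

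The elements began 61, 91, 137 and 52 bases upstream of the start shown in Areg, Adcyap1, Hmgcs1 and Dhcr7. On either strand, TGACGTCA was held by 1.77% of all 27025 genes with such a window, by 3.17% of tested genes, by 14 of 544 genes raised at least 2-fold (2.57%) and by 7 of 441 lowered at least 2-fold (1.59%). TGACGT, which TGACGTCA contains, was held by 7.29% of all genes, 12.2% of tested, 12.7% of raised and 6.8% of lowered genes. For CAAGGTCA the shares, in the same order, were 1.51%, 1.1%, 1.84% (10 genes) and 1.13%, and for TCACCCCAC 0.555%, 0.699%, 1.1% (6 genes) and 0.454%. A match is a string of letters in the window and no evidence that a factor was bound.

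Of 19 members tested of the LH and EGF ovulatory cascade, 13 were higher and 2 lower post-hCG. Their median log2FC was 2.12, against −0.03 for all genes tested. This list and those below were chosen with earlier results of these data known. Their counts and medians thus describe the members and are no test of a pathway. Here and below, the 3 TPM values given for a group are its lowest, median and highest library, and log2FC is given ± SE. Lhcgr, the receptor that hCG binds, stood at 1.2, 3.81 and 112 TPM without hCG and 61.7, 147 and 279.9 TPM post-hCG (log2FC 3.90 ± 0.53, FDR = 2.34e-07). The highest library without hCG, replicate 2, held 49.9% of that group's Lhcgr counts, and 8 of 12 post-hCG libraries lay above it. Without that library the log2FC of Lhcgr was 4.91 (edgeR FDR = 1.17e-12). All 5 ligands tested rose. Adcyap1, which encodes the neuropeptide PACAP, was at 0, 0.12 and 0.42 TPM without hCG and 23.3, 30.8 and 62.8 TPM post-hCG. It rose by 7.89 ± 0.28 on the log2 scale (FDR = 1.61e-20), with no overlap. Edn2, the vasoconstrictor endothelin 2, was at 0, 0 and 0.19 TPM without hCG and 2.9, 6.87 and 24.7 TPM post-hCG (log2FC 7.69 ± 0.46, FDR = 2.5e-15), again with no overlap. The EGF-like ligands rose by less on the log2 scale and overlapped between groups. Areg was at 0, 0.57 and 5.29 TPM without hCG and 1.42, 8.14 and 22.9 TPM post-hCG (log2FC 3.07 ± 0.43, FDR = 4.48e-07), and Ereg at 0.13, 0.52 and 4.56 TPM without hCG and 3.72, 16.1 and 35.8 TPM post-hCG (log2FC 4.0 ± 0.38, FDR = 1.59e-10).

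Among transcription factors of the cascade, Runx2 and Runx1 separated the groups completely. Runx2 was at 5.85, 8.85 and 20.3 TPM without hCG and 142, 265 and 369.6 TPM post-hCG (log2FC 4.16 ± 0.17, FDR = 7e-19). Runx1 rose by 2.44 (FDR = 1.79e-12) from a median of 10.4 to 52.3 TPM. Nrip1, a corepressor of nuclear receptors, fell with a log2FC of −1.44 (FDR = 1.78e-10). Of the effectors, Adamts1, a protease that cleaves versican, showed the widest gap, at 3.56, 7.53 and 11.5 TPM without hCG and 58.4, 191 and 306 TPM post-hCG (log2FC 4.46 ± 0.20, FDR = 5.17e-18). Ptgs2, the inducible cyclooxygenase, was at 0.46, 1.8 and 6.68 TPM without hCG and 2.12, 7.15 and 16.3 TPM post-hCG (log2FC 1.72 ± 0.32, FDR = 3.57e-05), with 6 of 12 post-hCG libraries above every library without hCG. Tnfaip6, a hyaluronan-binding protein of the expanding cumulus, had a log2FC of 1.60 (FDR = 7.5e-05), but only 1 of 12 post-hCG libraries exceeded the highest without hCG.

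Several classical members stayed under the filter on low counts, and their values rest on few reads. Pgr, the progesterone receptor, had 39 counts in 12 of 15 libraries without hCG and 14 in 7 of 12 post-hCG, and in a fit without the filter its difference did not pass (log2FC −0.79 ± 0.56, FDR = 0.307). Has2, which makes hyaluronan, had 111 counts in 15 of 15 libraries without hCG and 28 in 10 of 12 post-hCG and fell in that fit (log2FC −1.32 ± 0.39, FDR = 0.00848). Cebpb, a factor needed for luteinization, had 42 counts in 14 of 15 libraries without hCG and 64 in 10 of 12 post-hCG and rose in it (log2FC 1.19 ± 0.42, FDR = 0.0288).

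Progesterone synthesis and luteal genes rose in 17 of 25 members tested and fell in 4, with a median log2FC of 1.37. All 5 enzymes rose. Cyp11a1, which cuts the side chain of cholesterol, was at 33.7, 197 and 1306 TPM without hCG and 2007, 3508 and 5599 TPM post-hCG (log2FC 3.42 ± 0.39, FDR = 7.1e-09). Its electron donor Fdx1, adrenodoxin, was at 185, 453 and 1005 TPM without hCG and 2955, 6277 and 9106 TPM post-hCG (log2FC 3.85 ± 0.21, FDR = 3.1e-16). Neither gene overlapped between groups. Hsd3b1, which completes progesterone, was already at a median of 1235 TPM without hCG and reached 4421 TPM (log2FC 1.65 ± 0.22, FDR = 1.7e-07). Star, which carries cholesterol into mitochondria, was at 3.77, 43.1 and 143 TPM without hCG and 132, 341 and 556 TPM post-hCG (log2FC 2.83 ± 0.32, FDR = 5.08e-09), with 11 of 12 above the highest library without hCG. Scarb1, the receptor for high density lipoprotein, rose by 2.04 (FDR = 5.28e-08), while the difference of Akr1c18, which breaks progesterone down, did not pass (log2FC 0.60 ± 0.32, FDR = 0.112).

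Of 7 luteal receptors and markers tested, 4 rose, 1 fell and 2 were not called. With library totals 3 of them were lower, and with limma 0. The largest rises of the list were in this group. Sfrp4, a secreted Wnt inhibitor, was at 1.95, 6.41 and 117 TPM without hCG and 929, 2260.1 and 4013 TPM post-hCG (log2FC 7.20 ± 0.58, FDR = 4.41e-12). All 12 post-hCG libraries lay above the 116.9 TPM of replicate 12 without hCG, which held 55.2% of that group's Sfrp4 counts and without which the log2FC was 8.28 (edgeR FDR = 2.29e-18). Parm1, a membrane protein of luteal cells, rose from a median of 1.65 to 73.8 TPM (log2FC 5.42 ± 0.17, FDR = 1.03e-21). Gata4 and Gata6, factors of granulosa cells, fell, and Gata6 had a log2FC of −1.56 (FDR = 4.25e-08).

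**Figure D3:**
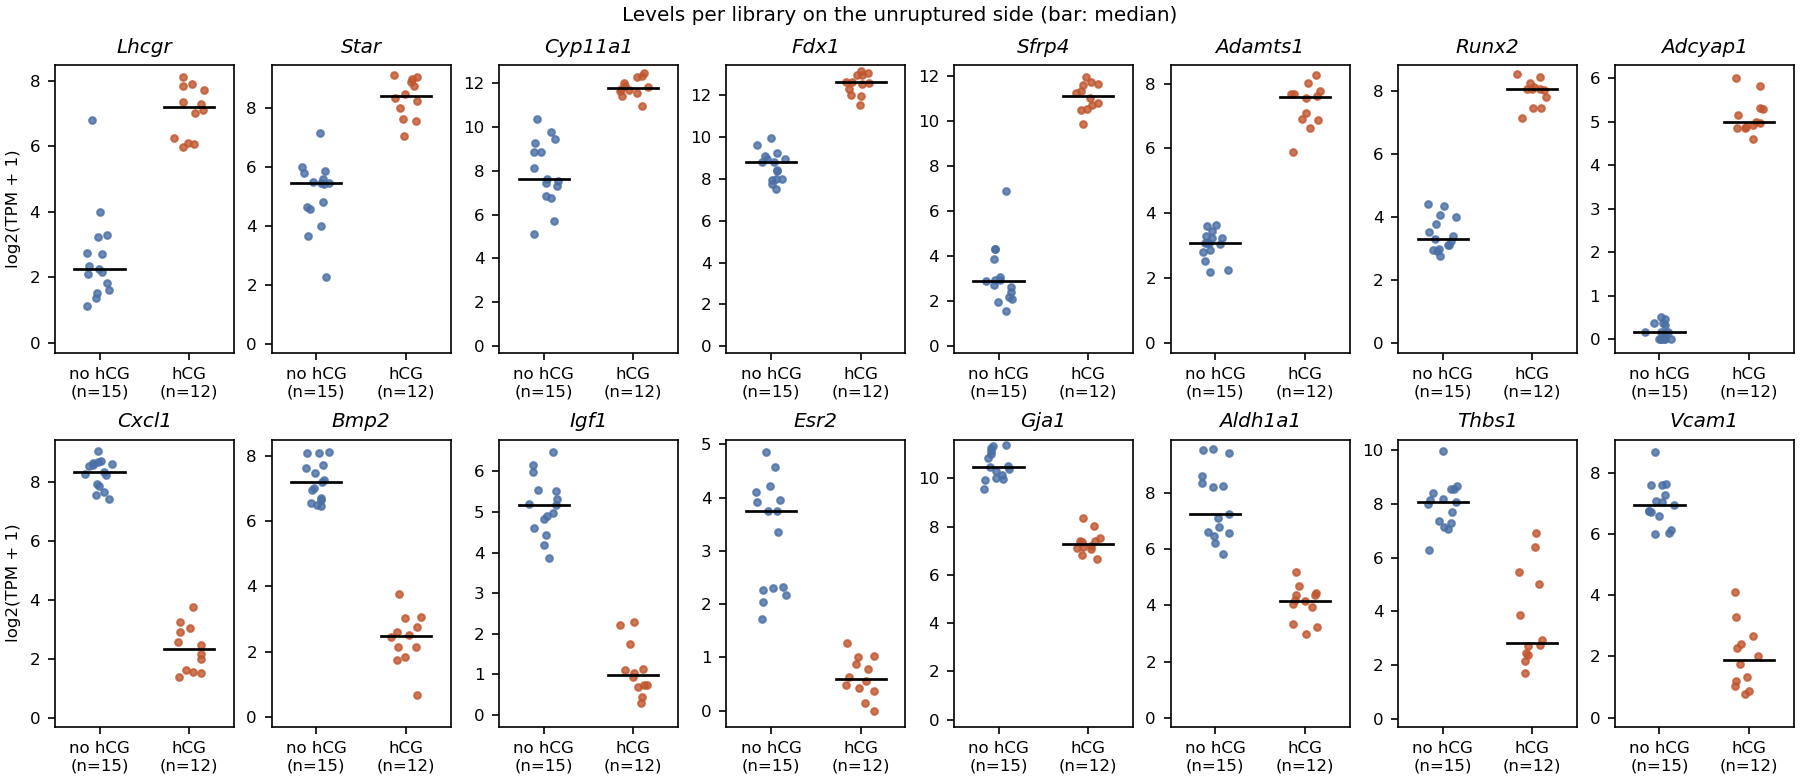
Each point is a library and the bar a group median, with log2(TPM + 1) on the y axis, for 15 libraries without hCG (blue) and 12 post-hCG (red). The upper row shows genes that rose, among which a single library without hCG reached the post-hCG range for Lhcgr, and the lower row genes that fell.

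Genes that supply cholesterol also rose. Of 25 genes of cholesterol synthesis and uptake, all of which were tested, 23 rose and none fell at the threshold, with a median log2FC of 1.18. The enzymes accounted for 18 of these. Dhcr7, the last step of the pathway, rose most, at 5.33, 14.5 and 43.5 TPM without hCG and 90, 189.6 and 331 TPM post-hCG (log2FC 3.95 ± 0.19, FDR = 9.63e-18). Hmgcs1, at its entry, was at 16.6, 71.3 and 127 TPM without hCG and 129, 236 and 355 TPM post-hCG (log2FC 1.76 ± 0.22, FDR = 4.69e-08). Both were free of overlap, as was Sqle, squalene epoxidase (log2FC 1.62). Tm7sf2, a sterol reductase, was not called.

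Glycolysis and lactate export rose in 19 of 22 members, all tested, with a median log2FC of 1.39. Glucose uptake and phosphorylation showed it at Slc2a1 and Hk2. Slc2a1, a glucose transporter, was at 2.11, 8.75 and 15.6 TPM without hCG and 14.1, 35.9 and 65.7 TPM post-hCG (log2FC 2.14 ± 0.20, FDR = 1.23e-10), and Hk2 rose by 2.42 at low level (medians of 1.26 and 7.09 TPM). Pfkfb3, which activates phosphofructokinase, was at 0.74, 2.71 and 4.47 TPM without hCG and 9.38, 17.6 and 23.3 TPM post-hCG (log2FC 2.76 ± 0.17, FDR = 7.13e-15). At the lactate end, Ldha was at 725, 2883 and 4536 TPM without hCG and 4769, 6529 and 8217 TPM post-hCG (log2FC 1.26 ± 0.21, FDR = 9.03e-06), and Slc16a3, a lactate exporter, rose by 2.58 (FDR = 2.08e-09). Neither overlapped between groups. Ldhb, the isoform that favors the reverse reaction, was the only glycolytic member to fall (log2FC −1.42 ± 0.20, FDR = 3.63e-07). Eno2 rose by 1.61 (FDR = 3.24e-08).

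Hypoxia targets rose in 9 of 11 tested and fell in 1, with a median log2FC of 1.20. Bnip3, a mitophagy receptor, was at 27.4, 63.1 and 152 TPM without hCG and 172, 422 and 756 TPM post-hCG (log2FC 2.56 ± 0.26, FDR = 6.35e-10) with no overlap. Egln3, an oxygen-sensing hydroxylase, rose by 1.20 (FDR = 0.00672), and Kdm3a fell with a log2FC of −0.54 (FDR = 0.000705). Metallothioneins and zinc transport rose in all 3 members tested. Mt1, which binds zinc and copper, was at 47.8, 215 and 411 TPM without hCG and 492, 1435 and 2622 TPM post-hCG (log2FC 2.75 ± 0.25, FDR = 7.56e-11), and Mt2 rose by 2.82 (FDR = 2.46e-09). Of 16 antioxidant genes, 4 rose and 5 fell, with a median log2FC of 0.21 that was 0 with library totals. Gclc, which starts glutathione synthesis, fell with a log2FC of −1.66 (FDR = 4.48e-07), and Hmox1 did not pass (log2FC 0.22 ± 0.19, FDR = 0.349).

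The prostaglandin pathway changed at single genes, with 6 of 14 members higher and 3 lower and a median log2FC of 0.29. Ptgs1, the constitutive cyclooxygenase, was at 0, 0.18 and 1.57 TPM without hCG and 9.75, 34 and 69.3 TPM post-hCG (log2FC 7.66 ± 0.38, FDR = 3.61e-17). The post-hCG median of Ptgs1, in TPM, was thus above that of Ptgs2. Akr1b7, an aldo-keto reductase, was at 0, 2.3 and 43.3 TPM without hCG and 8.15, 132 and 497 TPM post-hCG (log2FC 4.52 ± 0.65, FDR = 7.39e-07), with 9 of 12 above the other group, and without replicate 5 without hCG its log2FC was 5.11. Ptges, prostaglandin E synthase, rose by 0.49 (FDR = 0.000617), and with library totals it was 0.28 (FDR = 0.0548). Ptger3, an E2 receptor, fell with a log2FC of −1.26 (FDR = 0.00336). Ptger2, another E2 receptor, and Hpgd, which degrades prostaglandins, were below the filter. Hpgd had 103 counts in 15 of 15 libraries without hCG and 9 in 6 of 12 post-hCG (log2FC −2.71 ± 0.49, FDR = 2.86e-05 without the filter), and Ptger2 had 122 counts in 15 of 15 libraries without hCG and 22 in 7 of 12 post-hCG (log2FC −1.81 ± 0.43, FDR = 0.000984).

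FSH-state genes of granulosa cells fell in 14 of 20 members tested and rose in 3, with a median log2FC of −1.94. Both estrogen enzymes fell. Cyp19a1, aromatase, was at 0.96, 2.75 and 45.3 TPM without hCG and 0, 0 and 0.48 TPM post-hCG (log2FC −5.47 ± 0.61, FDR = 4.59e-09), with no overlap. Hsd17b1, which makes estradiol, was at 1.33, 3.72 and 35.6 TPM without hCG and 0, 0.67 and 1.9 TPM post-hCG (log2FC −3.32 ± 0.54, FDR = 5.05e-06). Igf1, a growth factor of healthy granulosa cells, was at 13.5, 35.1 and 88.2 TPM without hCG and 0.21, 0.98 and 3.88 TPM post-hCG (log2FC −4.65 ± 0.27, FDR = 1.57e-15). Esr2, the granulosa estrogen receptor, had a log2FC of −4.31 (FDR = 1.09e-09), and Gja1, connexin 43 of gap junctions, −3.31 (FDR = 4.12e-13). Foxl2, a factor that keeps granulosa identity, was lower by the same test (log2FC −2.03 ± 0.28, FDR = 3.35e-07) at medians of 1.66 and 0.41 TPM.

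Of the inhibin and activin subunits, Inha and Inhba fell and Inhbb rose. Inha was at 780.0, 2594 and 5382 TPM without hCG and 819.8, 1333 and 1891 TPM post-hCG (log2FC −1.11 ± 0.26, FDR = 0.000483). Inhba was at 4.94, 25.4 and 388 TPM without hCG and 12, 17.1 and 21.4 TPM post-hCG (log2FC −1.89 ± 0.47, FDR = 0.00115), with overlapping groups, and replicate 15 without hCG held 44.8% of that group's counts. Without it the log2FC of Inhba was −1.21 (edgeR FDR = 0.00336), and with the replicate number as a block it was −0.64 and did not pass (FDR = 0.0881). Inhbb was at 0.12, 0.5 and 2.44 TPM without hCG and 0.5, 1.31 and 3.19 TPM post-hCG (log2FC 0.81 ± 0.32, FDR = 0.0356) and stayed called in 16 of the 27 fits that left out a single library, and it was not called with library totals or without the 3 libraries named above. The same replicate was the highest of its group for Cyp19a1, Hsd17b1, Nap1l5 and Fst. Nap1l5, a nucleosome assembly protein, fell with a log2FC of −2.12 (FDR = 0.000246). Fshr, the FSH receptor, went the other way at low level, with 0, 0.7 and 2.39 TPM without hCG and 0.86, 2.38 and 5.48 TPM post-hCG (log2FC 1.60 ± 0.36, FDR = 0.000357). Ccnd2, an FSH-responsive cyclin, did not pass (log2FC 0.41 ± 0.21, FDR = 0.0908) and passed without replicate 7 without hCG (0.50, FDR = 0.0337). Nppc, which encodes C-type natriuretic peptide, had 111 counts in 14 of 15 libraries without hCG and 13 in 7 of 12 post-hCG (log2FC −2.35 ± 0.51, FDR = 0.000382 without the filter), while Amh had 6 counts in each group.

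Cyclic nucleotide genes moved in both directions, with 8 of 24 higher and 9 lower and a median log2FC of −0.03. Npr2, the receptor of C-type natriuretic peptide, fell, at 1.95, 3.46 and 7.55 TPM without hCG and 0.53, 1.57 and 4.76 TPM post-hCG (log2FC −1.68 ± 0.25, FDR = 8.33e-07). Phosphodiesterases split, with 4 higher and 4 lower of 9. Pde4d, which degrades cyclic AMP, rose by 2.32 (FDR = 1.5e-08), and Pde7b fell with a log2FC of −2.29 (FDR = 4.81e-07).

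Androgen and theca genes were sparse. Of 3 members tested only Cyp11b1, a steroid hydroxylase, was called (log2FC 1.50 ± 0.40, FDR = 0.00202), at medians of 0.85 and 3.44 TPM. This call is no measure of androgen synthesis. Insl3, a theca peptide hormone, was at 4.95, 33.3 and 299 TPM without hCG and 1.02, 40.3 and 76.1 TPM post-hCG and did not pass (log2FC −0.85 ± 0.53, FDR = 0.178). Cyp17a1, which makes androgens, had 206 counts in 15 of 15 libraries without hCG and 6 in 4 of 12 post-hCG (log2FC −4.24 ± 0.69, FDR = 4.98e-06 without the filter). Among theca markers 6 of 9 tested fell and none rose, with a median log2FC of −1.52. Aldh1a1, which makes retinoic acid, fell most, at 56.2, 149 and 753 TPM without hCG and 7.03, 16.9 and 35.5 TPM post-hCG (log2FC −4.01 ± 0.40, FDR = 5.05e-10), whereas Pdgfra had a log2FC of 0.14 (FDR = 0.735) that turned negative with library totals or without replicate 4 post-hCG.

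Collagens and fibrous matrix genes fell in 13 of 19 members tested and rose in 1, with a median log2FC of −1.20. With limma 9 were lower and 2 higher (median −0.69). Col1a1, Col3a1 and Dcn are also in the theca list, whose summed level was lower post-hCG as given above, and the part of theca cells in this result was not tested. Col1a1 was at 2.25, 28.5 and 142 TPM without hCG and 3.07, 9.47 and 27.5 TPM post-hCG (log2FC −1.60 ± 0.44, FDR = 0.00255). Col3a1 did not pass (log2FC −0.73 ± 0.48, FDR = 0.2), and without replicate 4 post-hCG, which held 36.1% of that group's Col3a1 counts, its log2FC was −1.22 (FDR = 0.0242). Without replicate 7 without hCG it was −0.29 (FDR = 0.582). Thbs1, thrombospondin 1, was at 76.4, 271 and 1011 TPM without hCG and 2.23, 6.13 and 118 TPM post-hCG (log2FC −3.61 ± 0.58, FDR = 4.33e-06), and 10 of 12 post-hCG libraries lay below every library without hCG. Lox, which crosslinks collagen, was the member that rose (log2FC 1.04 ± 0.34, FDR = 0.0105). Fn1, fibronectin, did not pass (log2FC −0.48 ± 0.23, FDR = 0.0853).

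The basement membrane list moved little, with 6 of 14 higher and 1 lower and a median log2FC of 0.38. Col4a1 was at 22.9, 119.5 and 163 TPM without hCG and 118, 174 and 319 TPM post-hCG (log2FC 0.79 ± 0.22, FDR = 0.0032). Col18a1 rose most (1.29, FDR = 3.07e-06), Col4a5 fell with a log2FC of −0.75 (FDR = 0.00427), and Lamc1 did not pass (log2FC 0.22 ± 0.13, FDR = 0.156). The sign of Lamc1 turned with library totals.

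Proteases and their inhibitors split, with 9 of 21 higher and 6 lower and a median log2FC of 0.15, which was −0.05 with library totals. Beside Adamts1, Mmp19 rose at low level (0.44, 1.68 and 3.14 TPM without hCG and 2.24, 4.96 and 10.1 TPM post-hCG, FDR = 5.27e-07). Mmp2, a gelatinase, had a log2FC of 1.61 (FDR = 0.00484), which was 0.78 (FDR = 0.0788) without replicate 4 post-hCG. Plat, a plasminogen activator, did not pass (log2FC −0.26 ± 0.19, FDR = 0.252). Among inhibitors, Timp1 and Timp3 moved apart. Timp1 was at 77.7, 639 and 1483 TPM without hCG and 2238, 2993 and 3922 TPM post-hCG (log2FC 2.06 ± 0.27, FDR = 9.07e-08) and did not overlap. Timp3 was at 24.9, 49.4 and 80.1 TPM without hCG and 8.16, 14.5 and 36.8 TPM post-hCG (log2FC −1.84 ± 0.20, FDR = 3.84e-09). Serpinb2, an inhibitor of plasminogen activators, rose from a median of 2 to 15 TPM (log2FC 3.03 ± 0.46, FDR = 1.7e-06).

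BMP, activin and TGF-beta genes fell in 13 of 22 members tested and rose in 3, with a median log2FC of −0.60, and limma called 8 lower (median −0.33). The ligand Bmp2 fell furthest, at 86.6, 147 and 279 TPM without hCG and 0.6, 4.61 and 12.7 TPM post-hCG (log2FC −5.12 ± 0.32, FDR = 7.97e-15), with no overlap. Of the antagonists, Fst, follistatin, was at 13, 29.9 and 194 TPM without hCG and 2.38, 5.38 and 14.2 TPM post-hCG (log2FC −2.80 ± 0.40, FDR = 4.52e-07), and Grem1 did not pass (log2FC 0.38 ± 0.28, FDR = 0.263). Id2, a BMP target that blocks helix-loop-helix factors, rose from a median of 95.9 to 1054 TPM (log2FC 3.0 ± 0.25, FDR = 5.59e-12) with no overlap, whereas its relative Id3 fell with a log2FC of −2.34 (FDR = 2.17e-11). Tgfb2 had 129 counts in 15 of 15 libraries without hCG and 24 in 10 of 12 post-hCG (log2FC −1.74 ± 0.41, FDR = 0.000896 without the filter).

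Wnt signaling genes fell in 13 of 20 and rose in 3, with a median log2FC of −0.66, and limma called 7 lower (median −0.38). The ligand Wnt2 was at 1.96, 4.54 and 12.6 TPM without hCG and 0, 0.22 and 0.77 TPM post-hCG (log2FC −4.36 ± 0.45, FDR = 7.99e-10). Wnt4 and Wnt5a moved by less, with log2FC of −0.54 (FDR = 0.0242) and 0.51 (FDR = 0.0125), and neither passed with limma (FDR = 0.189 and 0.082). The call of Wnt4 was also lost without replicate 11 without hCG (−0.43, FDR = 0.0523). None of 9 receptors rose and 6 fell (2 with limma), among them Fzd1 (log2FC −1.11 ± 0.23, FDR = 0.00015). All 3 target genes tested fell (2 with limma). Sfrp4, given above, is also in this list.

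Hedgehog genes fell in 4 of 6 tested and rose in 1, and Notch genes rose in 2 of 6 and fell in 2. With limma none of the 4 Hedgehog falls passed. The median log2FC was −0.44 for Hedgehog and 0.15 for Notch, which was −0.07 with library totals. Gas1, a Hedgehog coreceptor, rose (log2FC 1.92 ± 0.35, FDR = 3.08e-05), while Cdon, another, and the receptor Ptch1 fell (−0.77, FDR = 0.0179 and −0.59, FDR = 0.00166), and neither passed with limma (FDR = 0.648 and 0.455). Gli1, a target gene, had 12 counts without hCG (0.349 CPM, counts scaled to library totals) and 0 post-hCG. The 0 allows up to 0.118 CPM (3 counts over the group, counting error only). That limit was 2.96-fold below the level without hCG, but this ratio leaves out the counting error of the 12 counts and the spread between libraries. Dhh had 98 counts in 15 of 15 libraries without hCG and 109 in 11 of 12 post-hCG. Notch2 was at 2.05, 6.01 and 10.8 TPM without hCG and 11.2, 18.2 and 30.4 TPM post-hCG (log2FC 1.58 ± 0.11, FDR = 6.81e-14) with no overlap. The target Hey2 fell with a log2FC of −1.45 (FDR = 1.68e-06), and the ligand Jag1 had 124 counts in 15 of 15 libraries without hCG and 37 in 10 of 12 post-hCG (log2FC −1.09 ± 0.34, FDR = 0.0129 without the filter).

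Angiogenic genes were mostly too low to test, with 7 of 19 tested, 3 higher and 3 lower, and a median log2FC of −0.53. Apln, apelin, rose by 4.85 (FDR = 1.24e-13). Angpt2, an antagonist of the Tie2 receptor, fell, at 4.25, 9.87 and 17.5 TPM without hCG and 0.1, 0.86 and 3.54 TPM post-hCG (log2FC −3.63 ± 0.31, FDR = 1.18e-11), with no overlap. Vegfa had 96 counts in 13 of 15 libraries without hCG and 103 in 12 of 12 post-hCG, and its difference did not pass in the fit without the filter (log2FC 0.71 ± 0.32, FDR = 0.1). Of 10 endothelial markers only Cdh5 was tested, and it rose from a median of 0.72 to 2.42 TPM (log2FC 1.40 ± 0.33, FDR = 0.000604), while Pecam1 had 69 counts in 13 of 15 libraries without hCG and 78 in 11 of 12 post-hCG. The summed endothelial markers ran from 2.52 to 21.8 TPM without hCG and from 6.58 to 36.7 TPM post-hCG. Of 10 smooth muscle and pericyte markers only Acta2 was tested, at 4.46, 29.1 and 62.1 TPM without hCG and 1.12, 2.9 and 20.5 TPM post-hCG (log2FC −2.81 ± 0.39, FDR = 3.22e-07). The sum of these markers ran from 6.28 to 72.0 TPM and from 3.7 to 29.8 TPM, and Myh11 had 12 counts and 1 count.

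Immune markers summed to between 0.11 and 168 TPM without hCG and between 1.16 and 102 TPM post-hCG, and Lyz2, a lysozyme of myeloid cells and the only member tested, did not pass (log2FC −0.58 ± 0.66, FDR = 0.48). Ptprc had 15 and 8 counts, and Adgre1 63 and 14. Surface epithelium markers summed to at most 40.0 and 20.8 TPM, with Krt8 lower (log2FC −0.64 ± 0.24, FDR = 0.0218) and Msln at 4 counts in each group. Cumulus markers summed to between 4.55 and 26.2 TPM and between 11.8 and 27.4 TPM, and both members tested rose, Tnfaip6 among them. Of 10 granulosa markers tested, 7 fell and 2 rose, and most of them are also in the FSH-state list. Nr5a2, an orphan receptor of granulosa and luteal cells, was the marker that rose most, at 4.22, 11.4 and 21.1 TPM without hCG and 39.1, 52.7 and 79 TPM post-hCG (log2FC 2.12 ± 0.14, FDR = 5.56e-14).

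Cell cycle genes fell in 12 of 23 members tested and rose in 2, with a median log2FC of −0.48, and limma called 4 lower (median −0.19). With limma that share was near the share of all genes, of which it called 1522 of 9320 lower. Replication genes fell in 7 of 13 (2 with limma). Mcm5 had a log2FC of −1.62 (FDR = 2.03e-05), and Mcm2 did not pass (log2FC −0.36 ± 0.16, FDR = 0.0526). Mitotic genes were mostly under the filter, with 5 of 20 tested and 4 lower. Ccnb1, a mitotic cyclin, was at 0.35, 2.02 and 7.16 TPM without hCG and 0, 1.21 and 3.72 TPM post-hCG (log2FC −1.12 ± 0.41, FDR = 0.0216), whereas Top2a did not pass (log2FC −0.63 ± 0.39, FDR = 0.178), nor did Mki67 without the filter (149 and 56 counts, FDR = 0.15). Cdkn1a, the inhibitor p21, rose with no overlap, at 28.4, 60.3 and 114 TPM without hCG and 119, 286 and 464 TPM post-hCG (log2FC 2.18 ± 0.22, FDR = 4.11e-10).

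Immediate early genes, which switch on within minutes of a stimulus, rose in 5 of 14 and fell in 7, with a median log2FC of −0.17. The AP-1 subunits Fos and Jun fell with no overlap. Fos was at 8.43, 25 and 100.1 TPM without hCG and 1.84, 3.99 and 8.21 TPM post-hCG (log2FC −3.0 ± 0.34, FDR = 7.87e-09), and Jun at 29.2, 81.5 and 153 TPM without hCG and 5.52, 7.29 and 18.8 TPM post-hCG (log2FC −3.22 ± 0.24, FDR = 4.18e-13). Their relative Fosl1 rose from a median of 0.57 to 5.43 TPM (log2FC 3.21 ± 0.25, FDR = 1.24e-12), also with no overlap. Nr4a1 rose by 1.18 (FDR = 0.00361), and Egr1 did not pass (log2FC 0.23 ± 0.15, FDR = 0.215). In the integrated stress response, 8 of 15 members rose and 2 fell, with a median log2FC of 0.61. Slc3a2, the heavy chain of amino acid transporters, was at 37.7, 103 and 168 TPM without hCG and 308, 496 and 623 TPM post-hCG (log2FC 2.28 ± 0.17, FDR = 3.92e-13). Its factor Atf4 rose by 0.64 (FDR = 1.43e-05) and the target Asns by 0.61 (FDR = 0.000144). Slc7a11, the cystine transporter, fell with a log2FC of −1.57 (FDR = 7.12e-07), and Ddit3 did not pass (log2FC 0.33 ± 0.20, FDR = 0.174).

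**Figure D4:**
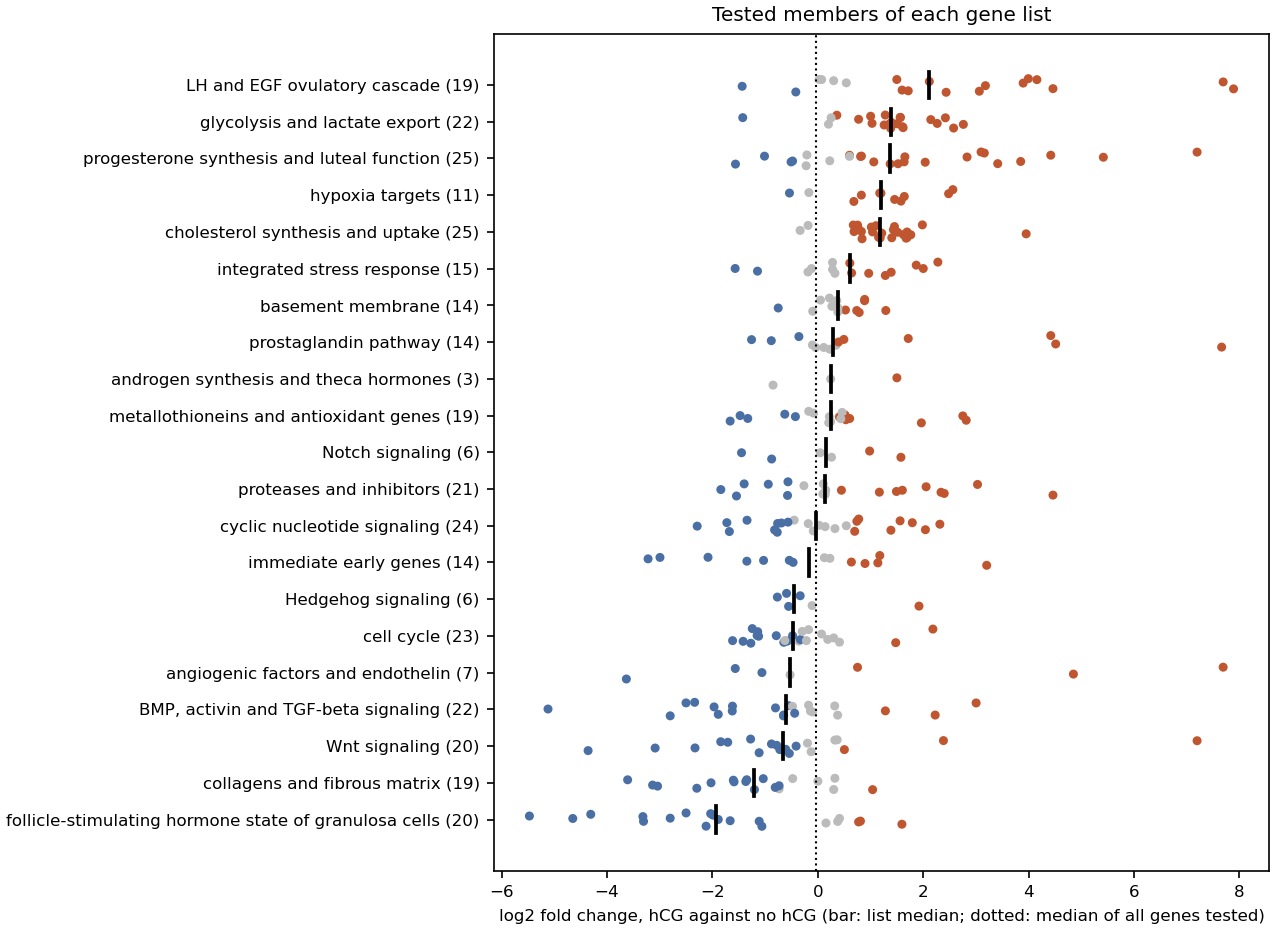
Each point is a tested member of a gene list, with the number tested in brackets and its log2 fold change (post-hCG against without hCG) on the x axis. Red points were called higher, blue lower and grey not called, the bar is the list median and the dotted line the median of all genes tested (−0.03), and list medians ran from −1.94 to 2.12.

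The largest rises of genes with a median of at least 10 TPM post-hCG included genes outside these lists. Rhox8, a homeobox gene of gonadal somatic cells (chrX:37874778-37878944, GRCm38), was at 0, 0.42 and 0.76 TPM without hCG and 12.1, 125 and 317 TPM post-hCG (log2FC 8.31 ± 0.48, FDR = 1.6e-15). Mpzl2, a cell adhesion protein (chr9:45039799-45054015), was at 0.54, 0.97 and 1.97 TPM without hCG and 67.5, 306 and 491 TPM post-hCG (log2FC 8.0 ± 0.30, FDR = 5.24e-20). Sstr1, a somatostatin receptor, was at 0.14, 0.46 and 2.66 TPM without hCG and 80, 118 and 215 TPM post-hCG (log2FC 7.10 ± 0.33, FDR = 6.5e-18). Rgcc, a regulator of the cell cycle, was at 4.68, 8.22 and 16.1 TPM without hCG and 217, 545 and 1109.7 TPM post-hCG (log2FC 6.07 ± 0.22, FDR = 1.61e-20). Slc16a11, a monocarboxylate transporter family member, Asgr1, an asialoglycoprotein receptor subunit, Xpnpep2, an aminopeptidase, and Srgn, a proteoglycan core protein, had log2FC of 7.45, 7.29, 6.90 and 5.13 (highest FDR = 1.68e-13). None of these 8 genes overlapped between groups.

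The largest falls, by the same rule with at least 10 TPM without hCG, were again free of overlap. Clca3a2, a member of a family of chloride channel regulators (chr3:144796559-144819494), was at 17, 36 and 114 TPM without hCG and 0, 0.7 and 2.98 TPM post-hCG (log2FC −6.78 ± 0.43, FDR = 1.17e-14). Cxcl1, a neutrophil chemokine (chr5:90891241-90893115), was at 172, 326 and 534 TPM without hCG and 1.62, 4.03 and 12.5 TPM post-hCG (log2FC −6.01 ± 0.30, FDR = 3.83e-17). Vcam1, a cell adhesion molecule, was at 63.6, 123 and 416 TPM without hCG and 0.69, 2.71 and 16.4 TPM post-hCG (log2FC −5.40 ± 0.46, FDR = 1.68e-11). Akr1c14, a hydroxysteroid dehydrogenase, was at 21.1, 68.9 and 192 TPM without hCG and 0.4, 1.69 and 2.96 TPM post-hCG (log2FC −5.89 ± 0.36, FDR = 6.82e-15). Ackr3, an atypical chemokine receptor, had a log2FC of −5.01, Ddit4l, an inhibitor of mTOR signaling, −5.14, Ccdc80, a secreted matrix protein, −4.95, Zfp385b −4.97, Mro −4.69 and Csmd1 −4.31 (highest FDR = 5.61e-12). Reads shared with family members, as for Clca3a2 and Akr1c14, could not be assigned from the tables.

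Among the most abundant named genes, Spp1, osteopontin, was at 314, 1851 and 5491 TPM without hCG and 14641, 19388 and 25902 TPM post-hCG (log2FC 3.08 ± 0.36, FDR = 1.24e-08). Tpt1 rose by 1.70 (FDR = 6.61e-14) and Ftl1, ferritin light chain, by 1.04 (FDR = 1.94e-08), both with no overlap. Actb and Eef1a1 did not pass (FDR = 0.916 and 0.75). Of 13 mitochondrially encoded genes 6 fell and none rose, with a median log2FC of −0.42. The most abundant of them, mt-Atp6, was at 15690.3, 20349 and 36159.6 TPM without hCG and 2337, 11813 and 15752 TPM post-hCG (log2FC −0.99 ± 0.21, FDR = 0.000153). The log2FC was −0.50 for mt-Nd1, −0.56 for mt-Cytb and −0.42 for mt-Atp8, whose reads overlap those of mt-Atp6. With each of the 27 libraries left out in turn, mt-Atp8 stayed called in 12 fits and mt-Nd1 in 16.

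The hCG effect was also compared with that on the ruptured side (13 libraries post-hCG and 14 of the putative side without hCG), through the interaction of side and medium in edgeR over all 54 libraries. That fit treated all libraries as independent. Both sides of a follicle may be among them, and such pairing was not tested. By the wells named in the labels, each group of side and medium filled its own run of wells. Plate position thus cannot be told apart from side and medium. Of 10013 genes, 892 differed (8.91%), 466 with a higher log2FC on the unruptured side (4.65%) and 426 with a lower one (4.25%). That balance depended on the method, with 660 higher and 230 lower by library totals and 679 and 85 by limma. Among the 892 genes, the effects had the same sign on both sides in 534 and opposite signs in 358. Where the sign was shared, the effect was larger on the ruptured side for 441 genes and on the unruptured side for 93. The ruptured values below come from that fit.

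Serpinb2 differed most in the positive direction: its log2FC was 3.03 on the unruptured and −1.94 on the ruptured side (difference 4.97, FDR = 0.000895). On the ruptured side it was at 0, 0.08 and 17.6 TPM without hCG and 0, 0.18 and 1 TPM post-hCG. The median there did not fall although the log2FC was negative, and both medians were very low. The interaction was not refitted with single libraries left out. Inhba, Thbs1 and Nppc fell on both sides and by less on the unruptured side, with differences of 3.54, 3.51 and 3.40 (FDR = 0.000383, 0.000271 and 0.0314). For Insl3 the difference was 4.33 (FDR = 0.0464), with a log2FC of −5.18 on the ruptured side, and limma did not call it (1.19, FDR = 0.476).

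In the negative direction, Cyp11a1 rose on both sides and by less on the unruptured side (3.42 against 5.49, FDR = 0.0114). Its levels post-hCG were 2007, 3508 and 5599 TPM on the unruptured and 2732, 4272 and 6169 TPM on the ruptured side, and without hCG 33.7, 197 and 1306 and 15.1, 66 and 389.5 TPM. The unruptured side thus had the higher median without hCG and the lower one post-hCG. Gas1 rose by 1.93 and 4.77 (FDR = 9.72e-05), and Lox by 1.05 and 2.93 (FDR = 0.00981). Grsf1, an RNA-binding protein of mitochondria, had log2FC of −0.68 and 1.42 (FDR = 0.000337), and Rpl9-ps6, a ribosomal pseudogene whose reads cannot be told apart from those of its parent gene in the tables, −2.43 and 1.52 (FDR = 0.00168).

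**Figure D5:**
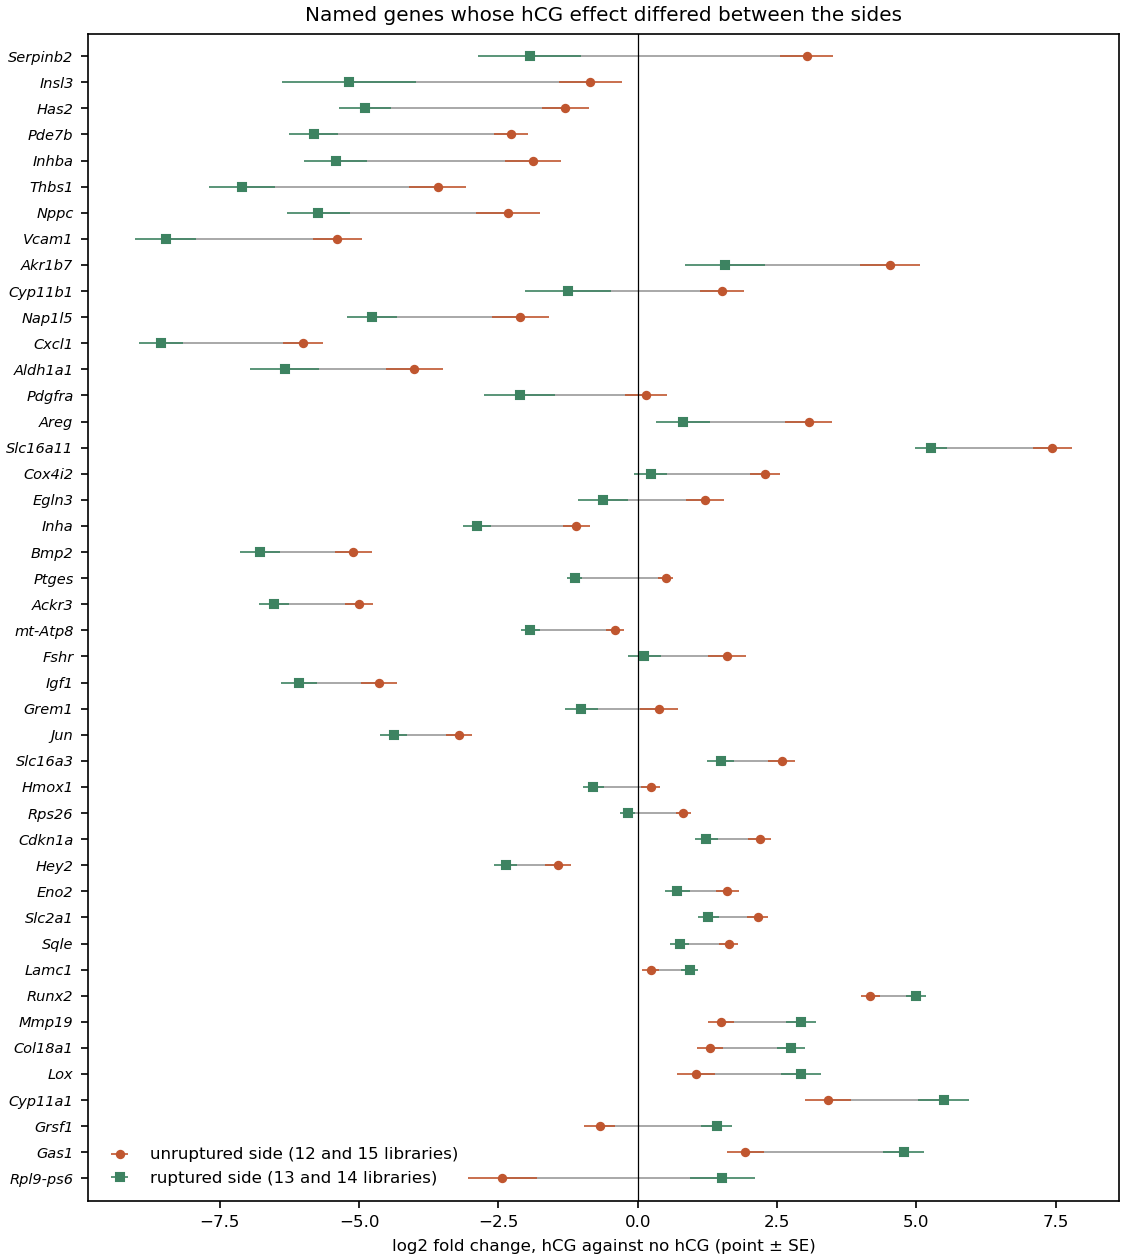
For each named gene whose hCG effect differed between the sides, circles give the log2 fold change on the unruptured side (12 libraries post-hCG against 15) and squares that on the ruptured side (13 against 14), with bars of 1 SE, on the x axis. Serpinb2, at the top, had effects of 3.03 and −1.94, and most genes that fell on both sides fell further on the ruptured side.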

How the data were processed

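RNA of single follicle sides was profiled by Smart-Seq2 in 54 libraries, of which the 27 of the unruptured side are reported. The authors mapped the reads with HISAT2 (GRCm38), applied the batch correction ComBat-seq and deposited 1 table of estimated counts and 1 of TPM for 25149 genes. The counting program, and whether either table precedes the batch correction, are not given in the sources used here. The deposited TPM values were scaled by the authors for length and library and were used here for levels. All per-sample columns were matched to samples by label, with 0 left over.

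Counts (72.2% of non-zero values whole) were rounded to whole numbers. Genes had to pass filterByExpr of edgeR 4.0.16 (R 4.3.3) with min.count at 10 and min.total.count at 15. After TMM scaling, the quasi-likelihood test of edgeR, two-sided with Benjamini-Hochberg adjustment, was applied at an FDR of 0.05. The biological coefficient of variation was 0.262, and 0.258 for the interaction over all 54 libraries. SE is the log2FC divided by the square root of F. On simulated counts with 200 of 9320 genes changed, edgeR found 93% of the 2-fold and 93% of the 4-fold changes of the hCG effect and called 9 other genes, and for the interaction (10013 genes) 66% and 98%, with 4 others called. Library measures were tested by permutation (100000 resamples) in Python 3.11.15. The lowest chi-square per gene between libraries of a group was 4.02, so none repeated another. Alternatives were DESeq2 1.42.0, limma 3.58.1 on log2(TPM + 1), and other scalings, filters and sets of libraries.

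The 32 gene lists hold 716 genes, of which 516 were tested, and the members and lists were chosen with earlier results of these data known. Genes named are the 12 largest called changes in each direction among those with a median of at least 10 TPM and a count in every library of the higher group, key genes of the lists, the largest positive and negative log2FC in each list, the 5 largest called interactions in each direction and the 10 most abundant genes, without clone-type symbols and without some genes that are not reported here. Esr2, Gja1, Apln, Id3, Inhbb, Gata4, Tm7sf2 and Gm10800 were named after their values were seen. Positions are those of GENCODE vM21.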

Additional observations from a re-analysis of the deposited data

Results flagged for a closer look

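The hCG effect of 44 named genes differed between the unruptured and the ruptured side by the interaction test in edgeR (FDR from 3.52e-08 to 0.0485), 35 with a higher log2FC on the unruptured side and 9 with a lower one. Each value in brackets is the log2FC on the unruptured side minus that on the ruptured side. Genes that fell in the fit on both sides, and by less on the unruptured side, were Insl3 (4.33), Has2 (3.59), Inhba (3.54), Pde7b (3.54), Thbs1 (3.51), Nppc (3.40), Vcam1 (3.08), Nap1l5 (2.65), Cxcl1 (2.55), Aldh1a1 (2.33), Inha (1.78), Bmp2 (1.66), Ackr3 (1.53), mt-Atp8 (1.52), Igf1 (1.44), Jun (1.17) and Hey2 (0.93). Genes with positive effects on both sides and the larger one on the unruptured side were Akr1b7 (2.96), Areg (2.26), Slc16a11 (2.18), Cox4i2 (2.05), Fshr (1.49), Slc16a3 (1.09), Cdkn1a (0.96), Eno2 (0.90), Sqle (0.88) and Slc2a1 (0.88). Genes with a positive effect on the unruptured side and a negative one on the ruptured side were Serpinb2 (4.97), Cyp11b1 (2.75), Pdgfra (2.27), Egln3 (1.83), Ptges (1.63), Grem1 (1.40), Hmox1 (1.03) and Rps26 (1.0).

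With a lower log2FC on the unruptured side, positive effects on both sides were found for Gas1 (−2.84), Cyp11a1 (−2.07), Lox (−1.88), Col18a1 (−1.46), Mmp19 (−1.43), Runx2 (−0.83) and Lamc1 (−0.70). A negative effect on the unruptured side and a positive one on the ruptured side were found for Rpl9-ps6 (−3.95) and Grsf1 (−2.10). The sign of an effect is that of its estimate, and effects of single sides need not have passed the threshold. Oocyte, theca and immune markers also differed between libraries, and their part in these differences was not tested.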

How the results depend on the processing

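Of 1961 values of named genes recomputed under the alternatives, 1908 kept their direction and their side of the threshold, 25 no longer passed, 21 newly passed and 7 turned sign. The cause was not tested for any of them. The gene counts of the hCG effect stayed within 1.5 times of the main ones under RLE size factors, robust dispersion, a mean of at least 20 counts, all 4 groups in one fit, thinning and the fits that left out replicates 1 or 7 without hCG. The same held for leaving out replicate 4 post-hCG or these 3 libraries together, which were chosen after seeing the data. With each of the 27 libraries left out in turn, also added after seeing the data, 4801 to 5012 genes were called. Of 120 genes named by rule and called, 4 lost the call in some fit that tested them (Mmp2, Wnt4, mt-Atp8 and mt-Nd1) and none turned sign. Inhbb, named after its values were seen, is not among the 120 and stayed called in 16 of the 27 fits. Fshr and Areg passed the filter in only 24 and 25 of these fits and were called in each. Another 7 genes, not called, gained a call in some fit (Ccnd2, Col3a1, Fn1, Grsf1, Mcm2, Rps3a1 and, without replicate 4 post-hCG, Top2a at −0.95, FDR = 0.0375). Library totals gave 1455 higher genes, and limma on log2(TPM + 1) gave 1623 lower genes, 407 of them at least 2-fold. DESeq2 called 1284 higher and 1249 lower genes at least 2-fold, and edgeR with no filter 1361 and 1510, with more genes tested in both. For the difference between sides, library totals gave 660 higher and 230 lower genes and limma 679 and 85. The share of ribosomal protein genes, −0.429 percentage points in counts (permutation p = 0.36), was 0.495 as a share of summed TPM (permutation p = 0.64).

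With library totals the log2FC of Lamc1 was −0.01, of Pdgfra −0.06 and of Actb −0.20. Pdgfra was at −0.17 without replicate 4 post-hCG, at 0.28 without replicate 7 without hCG and at −0.10 without the 3 libraries, and limma put mt-Nd4l at −1.29 and Eef1a1 at 0.01. None of these had passed. Replicate numbers did not pair the libraries of the unruptured side across media. Deviations of the 12 same-numbered pairs correlated between −0.133 and 0.177, only 1 above 0.1. Of 12 libraries, 1 correlated best with its own number. Pairs across the sides were not checked. With the replicate block, fitted on the libraries of the 12 shared numbers only, 4378 genes were called in place of 4947, and among named genes Inhba (−0.64, FDR = 0.0881), Cdon and mt-Nd1 no longer passed. Depth limits what could be tested: 15829 of 25149 genes did not pass the filter.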

Other observations

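Genes of the respiratory chain that the nucleus encodes went the other way from the mitochondrially encoded ones. Of 78 tested, 41 were higher post-hCG and 3 lower, with a median log2FC of 0.34, and with library totals 26 were higher and 8 lower with a median of 0.13. Cox4i2, a cytochrome oxidase subunit, was at 1.57, 4.64 and 14.1 TPM without hCG (lowest, median and highest library) and 9.81, 26.9 and 40.9 TPM post-hCG (log2FC 2.27 ± 0.27, edgeR FDR = 1.59e-08). Cox7a2l, a factor of respiratory supercomplexes, fell with no overlap (log2FC −0.90 ± 0.14, edgeR FDR = 2.15e-06). Among the mitochondrially encoded genes, mt-Nd4l had a log2FC of 0.34 and did not pass (edgeR FDR = 0.729), with a median of 105 TPM without hCG and 0 post-hCG. It passed the filter in 19 of the 27 fits that left out a single library, and its sign turned in 2 of them.

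Cytosolic ribosomal protein genes were higher in 20 of 80, beside 25.4% of all genes tested, and lower in none, with a median log2FC of 0.14. With library totals 12 were higher and 8 lower (median −0.05), and with limma 20 and 4. Rps26 rose by 0.81 (edgeR FDR = 3.08e-05), and Rps3a1 did not pass (−0.50, edgeR FDR = 0.0516). These genes have many processed pseudogenes, whose reads could not be separated in the tables.

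Oocyte transcripts were found in few libraries. Zp3 had 219 counts without hCG, 91.3% of them in replicate 1, and 7 post-hCG, and Gdf9 had 178 (92.1% in replicate 1) and 2. Tcf21, a theca factor, had 76 and 23 counts.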
